A study of Mus musculus with 4 samples.

Results

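The T cell receptor complex and its proximal signalling machinery were followed through 9 genes, *Cd3d*, *Cd3e*, *Cd3g*, *Cd247*, *Cd4*, *Lck*, *Zap70*, *Lat* and *Lcp2*, taken by name from the 25239 gene symbols listed in each library. RNA-Seq was performed on cells labelled as CD4+ T cells from lung tumors of C57BL/6 mice, male and 8 to 10 weeks old according to the methods, with 2 libraries of each label, WT and CD4/ALK4-KO. All mice received LLC-OVA cells, an ovalbumin-expressing Lewis lung carcinoma line, by the intravenous route, and the lungs were taken 18 to 22 days later by the labels and 16 to 20 by the methods. Cells were purified with a CD4+ T cell kit from the leukocytes at the interface of a density gradient. The CD4/ALK4-KO mice were CD4CreERT2+/-/Acvr1bfl/fl, so that tamoxifen, at 75 mg/kg in each of 5 daily doses, turns on a Cre recombinase driven by the mouse *Cd4* promoter that deletes the floxed parts of *Acvr1b*, the gene of the activin receptor ALK4. The paper calls the WT mice of this tumor model littermates of the CD4/ALK4-KO mice. Whether the WT mice carried the Cre or received tamoxifen is not given in the sources used here. *Cd4* is thus both one of the 9 genes and the source of the promoter that drives the recombinase. The labels call the libraries of a genotype biological replicates and do not say whether mice were pooled.

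The T cell receptor recognizes peptide on MHC molecules through its variable chains, which have no signalling motif of their own and depend on the CD3 delta, epsilon and gamma chains and on the zeta chain encoded by *Cd247*. The co-receptor CD4 binds MHC class II and brings the kinase Lck, which phosphorylates the tyrosine motifs of CD3 and zeta. The kinase ZAP-70 docks on these motifs and phosphorylates the adaptors LAT and SLP-76, the latter encoded by *Lcp2*, on which calcium and Ras signalling are assembled. The CD3 genes are classical markers of the T cell lineage, whereas *Cd247*, *Lck*, *Zap70* and *Lat* are also expressed in NK cells, *Cd4* in some myeloid cells and *Lcp2* in platelets, mast cells, neutrophils and macrophages.

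The 3 CD3 genes lay together on chromosome 9 (GRCm38, locations from GENCODE M21). *Cd3g* spanned 44969572 to 44980431 on the minus strand, *Cd3d* 44981786 to 44987339 on the plus strand and *Cd3e* 44998740 to 45009627 on the minus strand, within 40056 bp. *Cd3g* and *Cd3d* pointed away from each other, with 1355 bp between their starts, while the starts of *Cd3d* and *Cd3e* were 27841 bp apart. The other members were on other chromosomes, *Cd247* on 1 (165788681 to 165877277, plus), *Zap70* on 1 (36761798 to 36782818, plus), *Lck* on 4 (129548344 to 129573641, minus), *Cd4* on 6 (124864692 to 124888221, minus), *Lat* on 7 (126363824 to 126369570, minus) and *Lcp2* on 11 (34046920 to 34092295, plus). All 9 were annotated as protein-coding.

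The 250 bases before the annotated start are shown for the CD3 cluster, whose genes are neighbors, and for *Lck* and *Lcp2*, which lay near the top and at the bottom of the genotype differences given below. They were taken from RefSeq on GRCm38.p6, which had windows for 8 of the 9 members, 11 windows in all because *Lck* had 2 starts and *Zap70* 3. Each is printed along its gene's own strand, and capitals mark AGGAAG, the core letters bound by ETS factors, and CACCTG, an E-box, with their reverse complements CTTCCT and CAGGTG.
*Cd3e*, chr9:45009612-45009861, minus strand: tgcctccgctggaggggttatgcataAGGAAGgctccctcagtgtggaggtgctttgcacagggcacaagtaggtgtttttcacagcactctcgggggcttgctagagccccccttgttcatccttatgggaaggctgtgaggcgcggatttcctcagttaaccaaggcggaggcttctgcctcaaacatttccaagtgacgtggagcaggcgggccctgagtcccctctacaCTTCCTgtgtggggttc
*Cd3d*, chr9:44981536-44981785, plus strand: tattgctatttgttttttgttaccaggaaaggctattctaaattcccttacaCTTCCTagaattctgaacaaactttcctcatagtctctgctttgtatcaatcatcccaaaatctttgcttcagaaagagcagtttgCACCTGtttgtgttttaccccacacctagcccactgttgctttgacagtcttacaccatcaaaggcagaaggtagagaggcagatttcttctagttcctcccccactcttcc
*Cd3g*, chr9:44980432-44980681, minus strand: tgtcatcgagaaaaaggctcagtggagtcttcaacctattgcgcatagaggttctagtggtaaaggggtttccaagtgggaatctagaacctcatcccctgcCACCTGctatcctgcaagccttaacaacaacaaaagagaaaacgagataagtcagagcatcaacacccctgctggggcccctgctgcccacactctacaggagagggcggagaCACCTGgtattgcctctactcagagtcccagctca
*Lck*, upstream start, chr4:129573642-129573891, minus strand: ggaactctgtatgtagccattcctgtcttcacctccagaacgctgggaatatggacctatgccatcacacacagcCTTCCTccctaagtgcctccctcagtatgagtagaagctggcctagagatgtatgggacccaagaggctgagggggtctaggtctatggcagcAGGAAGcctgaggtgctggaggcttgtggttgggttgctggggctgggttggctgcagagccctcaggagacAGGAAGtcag
*Lck*, downstream start, chr4:129558373-129558622, minus strand: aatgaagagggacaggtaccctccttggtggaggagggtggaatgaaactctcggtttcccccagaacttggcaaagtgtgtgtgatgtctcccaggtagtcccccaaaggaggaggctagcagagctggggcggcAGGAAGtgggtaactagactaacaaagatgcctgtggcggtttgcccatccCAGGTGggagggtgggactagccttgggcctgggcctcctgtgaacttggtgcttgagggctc
*Lcp2*, chr11:34046678-34046927, plus strand: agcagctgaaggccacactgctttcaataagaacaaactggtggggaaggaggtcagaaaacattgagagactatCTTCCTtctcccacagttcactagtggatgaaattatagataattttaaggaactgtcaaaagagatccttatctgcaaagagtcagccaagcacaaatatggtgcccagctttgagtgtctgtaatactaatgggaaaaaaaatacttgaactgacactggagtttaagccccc

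AGGAAG, searched on both strands, was found in 9 of the 11 windows and in 7 of the 8 members with a window, the exception being *Cd3g*. Of 32851 windows of the same length over all genes, 29.5% held it. CACCTG was found in 6 of the 11 windows, against 17.2% of all windows, and *Cd3g* held it at 148 and 35 bases before its start. At the upstream start of *Lck*, AGGAAG occurred at 175, 82 and 10 bases before the start. The downstream start of *Lck* held it once, at 114, and *Lcp2* held it once, at 175. TGTGGT, the core letters of RUNX sites, was found in 2 of the 11 windows (14.0% of all windows). AGATAA, the letters bound by the GATA family, was found in 2 of them (9.99%) and TGACGT, part of the cyclic AMP response element, also in 2 (6.47%). TATAAA, the letters bound by the factor TBP, was found in none (12.4%). The letters were chosen after the sequences had been seen, and a match is a description of the letters only.

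The WT-labelled libraries held 13869889 and 13943237 counts, the CD4/ALK4-KO-labelled ones 11959487 and 11823908. Replicates differed beyond sampling noise, the chi-square divided by its degrees of freedom being 17.06 between the WT and 30.47 between the CD4/ALK4-KO replicates. The targeted gene *Acvr1b* had 426 and 342 counts in the WT-labelled libraries and 322 and 445 in the CD4/ALK4-KO-labelled ones, or 28.2 ± 4.10 and 31.6 ± 6.36 CPM (SD, n = 2). The groups overlapped, with a log2 fold change of 0.16 (SE 0.24, edgeR adjusted p = 0.66). Counts over the whole gene do not separate the deleted part from the rest, and the genotypes are therefore given as the libraries are labelled. Transcripts of macrophages and fibroblasts were abundant in all 4 libraries, as described with the cell type markers, and in such bulk samples fewer cells of a type and less RNA per cell cannot be told apart.

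All 9 members were higher in the CD4/ALK4-KO-labelled libraries. Their CPM, the counts relative to the TMM-scaled library size, summed to 421 and 379 in the WT-labelled libraries and to 2017 and 1962 in the CD4/ALK4-KO-labelled ones. The median log2 fold change of the 9 genes was 2.35, which is 5.10-fold, and the values ran from 1.76 for *Lcp2* to 2.92 for *Cd3e*. For none of the 9 did the groups overlap. Over the 13919 genes tested the median was -0.01, at an adjusted p under 0.05 17.4% were called higher and 15.4% lower (edgeR's quasi-likelihood test, Benjamini-Hochberg), and 32.7% were higher without overlap between the groups. A log2 fold change above that of *Lcp2*, the lowest member, was found in 4.37% of the genes tested.

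**Figure D1:**
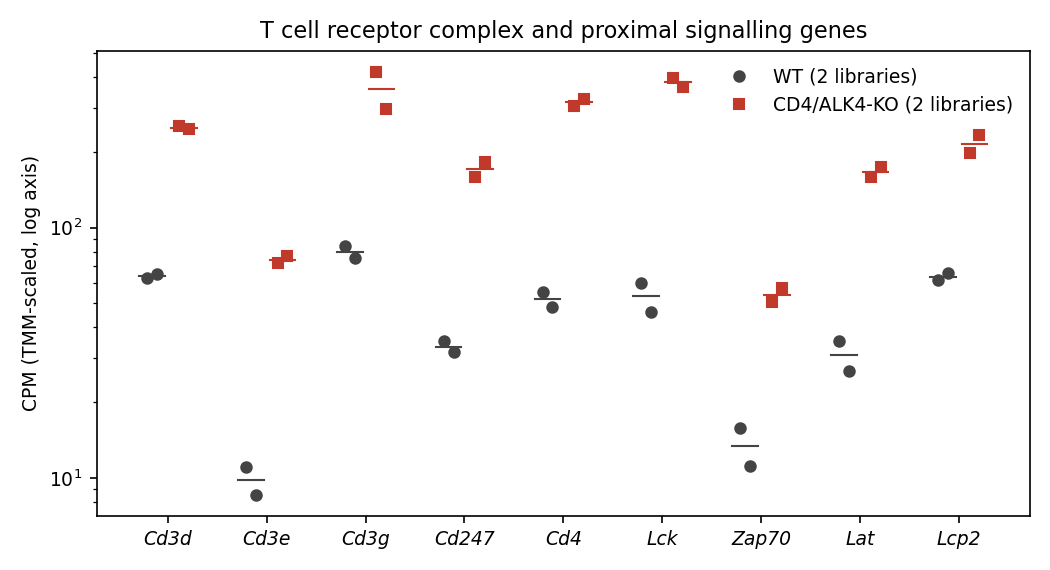
CPM of the 9 members on a log axis, with 1 point per library (circles, 2 libraries labelled WT; squares, 2 labelled CD4/ALK4-KO) and a line at the mean of each group. For every member both squares lie above both circles, from *Cd3e* at 8.58 to 76.8 CPM to *Cd3g* at 75.9 to 419 CPM.

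Among the CD3 chains, *Cd3e*, which encodes the epsilon chain present in both CD3 dimers, differed most. It had 151 and 116 counts in the WT-labelled libraries and 859 and 948 in the CD4/ALK4-KO-labelled ones, or 11.0 and 8.58 against 72.2 and 76.8 CPM. Its log2 fold change of 2.92 (SE 0.24, edgeR adjusted p = 2.5e-08) was the largest of the members, and replicates lay close together relative to the gap between the groups. *Cd3d*, encoding the delta chain, had 862 and 880 against 3024 and 3059 counts, with 64.0 ± 1.52 CPM in WT and 251 ± 4.45 CPM in CD4/ALK4-KO (SD, n = 2). Relative to the mean this was the tightest pair of replicates among the members in both groups, and the log2 fold change was 1.97 (SE 0.22, edgeR adjusted p = 5.0e-07). *Cd3g*, encoding the gamma chain, had 1156 and 1027 counts in the WT-labelled libraries and 4987 and 3673 in the CD4/ALK4-KO-labelled ones. Its log2 fold change was 2.16 (SE 0.24, edgeR adjusted p = 4.7e-07). The CD4/ALK4-KO replicates of *Cd3g* stood further apart than those of any other member, at 419 and 297.5 CPM, and the log2 fold change was 1.92 without CD4/ALK4-KO replicate 1 and 2.38 without replicate 2.

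*Cd247* had 481 and 431 counts in the WT-labelled libraries and 1898 and 2252 in the CD4/ALK4-KO-labelled ones. The zeta chain, which carries more tyrosine motifs than any CD3 chain, was thus at 33.5 ± 2.29 CPM in WT and 171 ± 16.2 CPM in CD4/ALK4-KO (SD, n = 2), with a log2 fold change of 2.35 (SE 0.22, edgeR adjusted p = 6.8e-08). In the annotation, *Cd247* shares 3007 bp of exon with *Pou2f1* on the opposite strand. The library kit does not mark strand, so that reads of the shared stretch cannot be assigned to one of these genes, and the level of *Cd247* is uncertain. *Pou2f1*, which encodes the transcription factor Oct-1, had 205, 235, 776 and 607 counts in the same order of libraries. *Cd3e* shares 135 bp of exon with the antisense transcript *Gm48719*, and *Lcp2* shares 282 bp with *4930469K13Rik*, which had at most 8 counts in a library.

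*Cd4* had 759 and 649 counts in the WT-labelled libraries and 3654 and 4033 in the CD4/ALK4-KO-labelled ones. The 2 groups did not overlap, at 55.4 and 48.0 against 307 and 327 CPM, and the log2 fold change was 2.62 (SE 0.23, edgeR adjusted p = 2.8e-08). *Lck*, the Src family kinase bound to the tails of CD4 and CD8, had 824 and 625 counts against 4720 and 4514, or 60.1 and 46.2 against 397 and 366 CPM. With a log2 fold change of 2.84 (SE 0.24, edgeR adjusted p = 2.5e-08), *Lck* ranked next to *Cd3e* among the members.

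The members downstream of *Lck* had smaller log2 fold changes. *Zap70*, the Syk family kinase that binds phosphorylated zeta, had 216 and 151 counts in WT and 601 and 708 in CD4/ALK4-KO, with a log2 fold change of 2.00 (SE 0.25, edgeR adjusted p = 2.5e-06). Relative to the mean, its WT replicates were further apart than those of any other member, at 15.8 and 11.2 CPM. Its log2 fold change came to 2.26 when WT replicate 1 was left out and to 1.77 when WT replicate 2 was. *Lat*, the membrane adaptor phosphorylated by ZAP-70, had 482 and 360 against 1890 and 2155 counts, and 30.9 ± 6.05 CPM in WT against 167 ± 11.2 CPM in CD4/ALK4-KO (SD, n = 2). Its log2 fold change was 2.43 (SE 0.23, edgeR adjusted p = 6.8e-08), above those of *Zap70* and *Lcp2*. *Lcp2*, the cytosolic adaptor SLP-76, had 843 and 891 counts against 2374 and 2882, or 61.5 and 65.9 against 199 and 233 CPM, and at 1.76 (SE 0.22, edgeR adjusted p = 2.1e-06) its log2 fold change was the smallest of the 9. From *Lcp2* to *Cd3e* the log2 fold changes spanned 1.16, which is 2.24-fold, against standard errors of 0.22 to 0.25 for single genes.

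**Figure D2:**
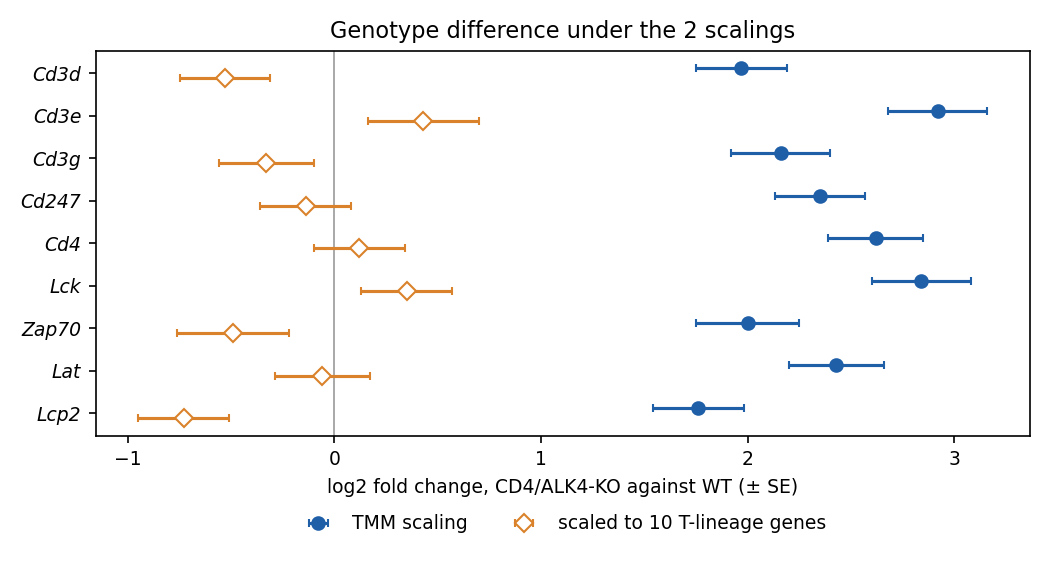
Log2 fold change of each member, CD4/ALK4-KO-labelled libraries against those labelled WT, with its SE, for TMM scaling (filled circles) and for scaling to the geometric mean of 10 other T-lineage genes (open diamonds). With TMM scaling the members lie between 1.76 and 2.92, and with T-lineage scaling between -0.73 and 0.43.

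The members were then compared with the rest of the T cell transcripts, by scaling each library to the geometric mean of 10 T-lineage genes that are not members (among them *Cd2*, *Cd5*, *Cd6*, *Thy1*, *Bcl11b*, *Skap1*, *Cd28* and *Themis*). With TMM scaling the median log2 fold change of these 10 genes was 2.42, near the 2.35 of the members, and all 10 were called higher. On the T-lineage scale the median of the members was -0.14, while that of all genes tested was -2.50, so that 94.5% of all genes were called lower there and 0.151% higher. Among the members, 2 were called lower, 7 passed in neither direction and none was called higher.

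Per 100 counts of the T-lineage genes, *Lcp2* had 268.0 and 303.5 counts in the WT-labelled libraries and 157.7 and 186.4 in the CD4/ALK4-KO-labelled ones. The groups did not overlap, and the log2 fold change on this scale was -0.73 (SE 0.22, edgeR adjusted p = 0.0026). These counts can include *Lcp2* transcripts of the other cell types named above, whose share was not tested. *Cd3d* had 274.1 and 299.7 against 200.9 and 197.9, also without overlap, with a log2 fold change of -0.53 (SE 0.22, edgeR adjusted p = 0.025). Neither call held without WT replicate 2, where the values were -0.64 (edgeR adjusted p = 0.060) for *Lcp2* and -0.46 (0.18) for *Cd3d*, and that of *Cd3d* was also lost without WT replicate 1 (-0.59, adjusted p = 0.080) and with the replicate number as a block (-0.52, adjusted p = 0.10). On the same scale *Cd3e* had 48.0 and 39.5 counts against 57.1 and 61.3, with a log2 fold change of 0.43 (SE 0.27, edgeR adjusted p = 0.12), and *Lck* had 262.0 and 212.9 against 313.5 and 292.0, with one of 0.35 (SE 0.22, adjusted p = 0.13). These 2 genes, like *Cd4*, had higher values in both CD4/ALK4-KO libraries than in either WT library, although none of them passed the threshold. *Cd4* was at 0.12 (adjusted p = 0.59), *Lat* at -0.06 (0.80), *Cd247* at -0.14 (0.54), *Cd3g* at -0.33 (0.16) and *Zap70* at -0.49 (0.081). *Lat* overlapped between the groups on this scale, at 153.3 and 122.6 against 125.5 and 139.4 counts per 100. Of the other members 5 were lower and 3 higher without overlap, against 96.4% and 0.575% of all genes tested. *Cd3g* was called lower without CD4/ALK4-KO replicate 1 (-0.59, edgeR adjusted p = 0.018) and *Zap70* without CD4/ALK4-KO replicate 2 (-0.59, 0.037).

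**Figure D3:**
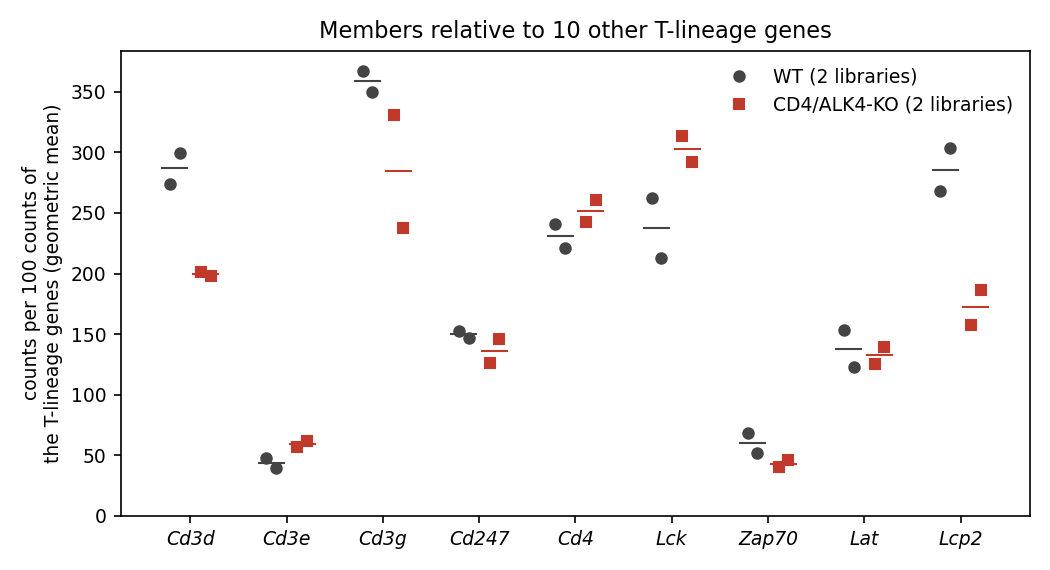
Counts of each member per 100 counts of the geometric mean of 10 other T-lineage genes, with 1 point per library and a line at the group mean (circles, WT; squares, CD4/ALK4-KO). The squares of *Cd3d*, *Cd3g*, *Cd247*, *Zap70* and *Lcp2* lie below the circles, those of *Cd3e*, *Cd4* and *Lck* above them, and those of *Lat* among them.

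Ratios of counts within a library, from which depth and scaling cancel, compare members directly, and 12 such ratios were computed, among members and against other genes. The ratio of *Cd3e* to *Cd3d* was 0.175 and 0.132 in the WT-labelled libraries and 0.284 and 0.310 in the CD4/ALK4-KO-labelled ones, a 1.95-fold difference. The ratio of *Lck* to *Lcp2* was 0.977 and 0.701 against 1.99 and 1.57, a 2.13-fold difference. Neither ratio overlapped between the groups. *Cd3e* and *Lck* had the largest log2 fold changes of the members, and *Lcp2* and *Cd3d* the smallest. These ratios therefore restate the fold changes given above and are no separate evidence. By contrast, the ratio of *Cd3g* to *Cd3d*, the divergent neighbors, was 1.34 and 1.17 against 1.65 and 1.20 and overlapped, while that of *Lck* to *Cd4*, at 1.09 and 0.963 against 1.29 and 1.12, did not overlap but differed only 1.18-fold. With 2 libraries against 2, an exact permutation test (two-sided) cannot give a p below 0.333, and these ratios were not tested.

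Levels of different genes were compared per length, as counts divided by the exon length of the basic annotation and scaled to a common sum per library. *Cd3g* had the highest level of the members in all 4 libraries, with means of 163 in WT and 859 in CD4/ALK4-KO, and *Zap70* the lowest, with 12.4 and 59.0. In the WT-labelled libraries the order was *Cd3g* (163), *Cd3d* (82.1), *Lat* (51.5), *Lck* (47.6), *Cd4* (34.5), *Lcp2* (31.6), *Cd247* (15.3), *Cd3e* (13.9) and *Zap70* (12.4). Of the neighbors in this order, *Lat* and *Lck*, *Cd4* and *Lcp2*, *Cd247* and *Cd3e*, and *Cd3e* and *Zap70* overlapped between libraries. In the CD4/ALK4-KO-labelled libraries the order was *Cd3g* (859), *Lck* (404), *Cd3d* (381), *Lat* (329), *Cd4* (250.2), *Lcp2* (127), *Cd3e* (125), *Cd247* (92.1) and *Zap70* (59.0), and only *Lcp2* and *Cd3e* overlapped. With these lengths *Lck* stood above *Cd3d* in both CD4/ALK4-KO libraries and below it in both WT libraries. The order depended on the lengths. With the exons of all annotated transcripts *Cd3d* was first in every library, above *Lck* as well. *Cd3g*, whose length then rose from 1023 to 3269 bp, was no higher than the second. *Cd3e* was then the lowest in WT, with a mean of 7.02 against 13.15 for *Zap70*. In CD4/ALK4-KO these genes were close, at 62.55 for *Cd3e* and 61.76 for *Zap70*.

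Further lists describe the machinery around the members. Of 25 proximal partners, which are kinases, adaptors and enzymes acting directly beside the members, 21 were called higher, none lower and 4 in neither direction, with a median log2 fold change of 2.05. *Rasgrp1*, an activator of Ras downstream of LAT, had 23.3 CPM in WT and 217 CPM in CD4/ALK4-KO (log2 fold change 3.22, edgeR adjusted p = 2.5e-08), and it was also called higher on the T-lineage scale, by 0.72 (edgeR adjusted p = 0.0061). *Ptprc*, which encodes the phosphatase CD45 of all leukocytes, had a log2 fold change of 1.62 (edgeR adjusted p = 8.8e-06), and *Fyb*, an adaptor bound by SLP-76, one of 2.30 (3.0e-07). *Nck1*, an adaptor found in most cells, was at -0.31 (edgeR adjusted p = 0.31). The other partners not called were *Nck2* (0.15), *Sos1* (-0.18) and *Bcl10* (0.30), named after their values were seen.

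Of 17 negative regulators of proximal signalling, 15 were called higher, 1 lower and 1 in neither direction, with a median of 1.41. *Ubash3a*, a phosphatase-like protein of T cells, was at 3.09 (edgeR adjusted p = 2.8e-08) and *Dgka*, a diacylglycerol kinase, at 2.45 (6.5e-08). *Ptpn22*, the phosphatase that acts on Lck and ZAP-70, was at 1.72 (edgeR adjusted p = 2.9e-06), and *Sla*, an adaptor that lowers receptor levels, at 1.33 (8.0e-05). *Dok1*, an adaptor shared with myeloid cells, fell by 0.93 on the log2 scale (edgeR adjusted p = 0.0047). Without WT replicate 1 no negative regulator was called lower. All 11 accessory receptors, which are co-stimulatory, adhesion and CD8 co-receptors, were called higher, with a median of 2.21 (2.14 over the 9 without *Cd8a* and *Cd8b1*, which are also the CD8 T cell markers below) and values from 1.52 for *Ly9* to 2.65 for *Cd5*. *Cd28*, the main co-stimulatory receptor, was at 2.26 (edgeR adjusted p = 1.5e-07) and *Cd2*, an adhesion receptor, at 2.14 (1.6e-07).

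**Figure D4:**
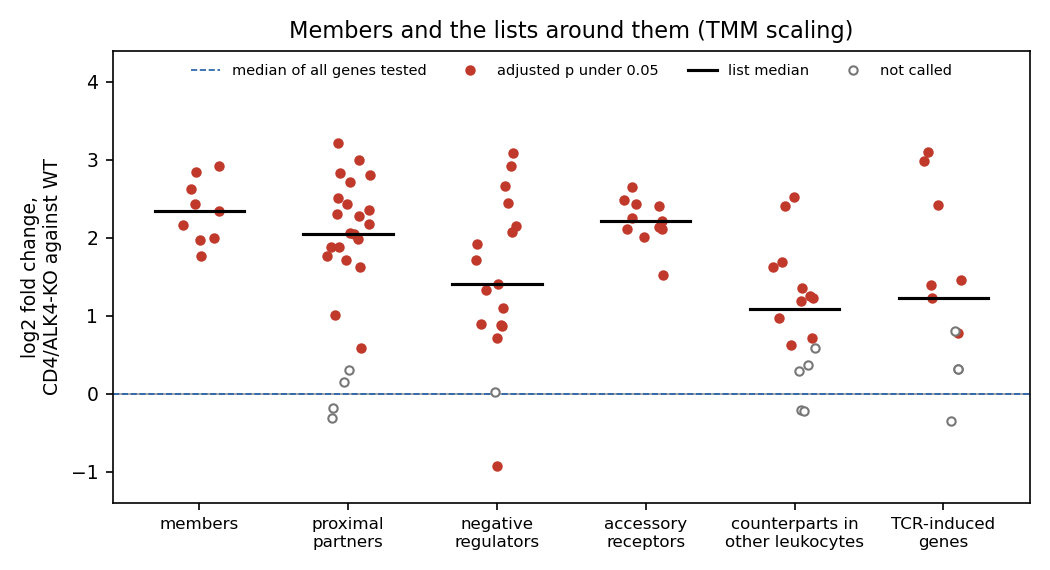
Log2 fold change (TMM scaling, CD4/ALK4-KO-labelled libraries against WT) of the 9 members and of the genes of 5 lists around them, with 1 point per gene, filled where the adjusted p was under 0.05, a bar at the list median and a dashed line at the median of all genes tested. The medians are 2.35, 2.05, 1.41, 2.21, 1.08 and 1.23 from left to right.

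The 16 counterparts do the work of the members in other leukocytes. Of these genes 11 were called higher, none lower and 5 in neither direction, with a median log2 fold change of 1.08. Without WT replicate 1, 7 were called higher. *Fcer1g* and *Tyrobp*, the signalling chains of Fc and NK cell receptors that are related to zeta in function, were at -0.21 (edgeR adjusted p = 0.49) and -0.22 (0.51). The ratio of *Cd247* to *Fcer1g* was 0.106 and 0.0801 in the WT-labelled libraries and 0.526 and 0.558 in the CD4/ALK4-KO-labelled ones. *Lyn*, the Src family kinase of B and myeloid cells, was at 0.37 (edgeR adjusted p = 0.22), and the ratio of *Lck* to *Lyn* was 0.363 and 0.193 against 1.44 and 1.47. *Lat2*, the LAT relative of B and myeloid cells, was at 0.29 and not called, and the ratio of *Lat* to *Lat2* was 0.666 and 0.541 against 2.89 and 2.49. In each of these 3 pairs the member gained on its counterpart by 4.47-fold to 5.89-fold without overlap. The ratio of *Zap70* to *Syk* differed less, at 0.390 and 0.319 against 0.784 and 0.530, since *Syk* itself was called higher (log2 fold change 1.19). *Blnk*, the SLP-76 counterpart of B cells, was called higher by 1.62, and the ratio of *Lcp2* to *Blnk* overlapped, at 14.3 and 16.8 against 22.2 and 14.3. *Blk*, a Src family kinase of B cells, had the largest log2 fold change among the counterparts, 2.52 (edgeR adjusted p = 4.6e-06).

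Of 11 genes induced by T cell receptor stimulation, 7 were called higher, none lower and 4 in neither direction, with a median of 1.23. *Irf4*, a transcription factor induced with receptor strength, had 5.29 CPM in WT and 45.3 CPM in CD4/ALK4-KO (log2 fold change 3.10, edgeR adjusted p = 8.3e-08). *Cd69*, an early activation marker, was at 1.40 (edgeR adjusted p = 3.0e-05) and *Tnfrsf9*, which encodes 4-1BB, at 0.78 (0.0062). *Egr1*, an immediate early gene of many cell types, was at -0.35 (edgeR adjusted p = 0.34). On the T-lineage scale the median of this list was -1.25 and that of the negative regulators -1.09, against -0.14 for the members, -0.29 for the accessory receptors and -0.44 for the proximal partners. The proximal partners, negative regulators and accessory receptors share genes with the 10 scaling genes. The medians of all these lists lay above that of all genes, -2.50. The lists also hold genes expressed in other cell types, such as *Egr1* and *Dok1*. The part of those cells in the medians was not tested, so that the medians are not levels per T cell. Of the receptor chain genes, *Ptcra*, the pre-receptor alpha chain, had 1 and 1 counts in WT and 36 and 2 in CD4/ALK4-KO and was not tested, while the constant region genes were not analysed here.

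Markers of other cell types moved beside the members, and their part in the differences was not tested. The CD8 T cell genes *Cd8a* and *Cd8b1* summed to 47.8 and 43.6 CPM in the WT-labelled libraries and to 310 and 192 CPM in the CD4/ALK4-KO-labelled ones, and both were called higher, with log2 fold changes of 2.43 and 2.49. The ratio of *Cd4* to *Cd8a* overlapped between the groups, at 2.08 and 2.02 against 1.83 and 3.14. All 6 NK cell markers were called higher, summing to 89.0 and 147 against 358 and 390 CPM. All 8 B cell markers were called higher as well, summing to 84.8 and 72.5 against 239 and 438 CPM. CD4/ALK4-KO replicate 2 had the highest B cell sum. The ratio of *Cd3e* to *Ncr1*, an NK cell receptor, was 2.56 and 1.01 against 2.53 and 2.69 and overlapped. The CD8 T cell, NK cell and B cell markers were thus higher in the same libraries as the members, by medians of 1.96 to 2.46 on the log2 scale. Which cells these transcripts came from was not tested. Of 7 dendritic cell markers 4 were called higher and 1 lower.

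The sum of the 10 macrophage markers was among the largest of the marker lists and stayed between 6090 and 7842 CPM over all 4 libraries. Of these markers 1 was called higher (*Csf1r*, 0.70) and 1 lower, with a median of -0.39. Most of this sum was *Lyz2*, the lysozyme gene shared with neutrophils, at 4278, 5687, 4758 and 4227 CPM, named after its values were seen. The other 9 markers summed to 2404 and 2155 CPM in WT and to 1748 and 1862 CPM in CD4/ALK4-KO. In the WT libraries, labelled as CD4+ T cells, both sums were above that of the 9 members, 421 and 379 CPM, whereas in the CD4/ALK4-KO libraries the members, at 2017 and 1962 CPM, were above the sum without *Lyz2*. The ratio of *Cd3e* to the macrophage gene *Adgre1* was 0.0588 and 0.0417 in WT and 0.513 and 0.540 in CD4/ALK4-KO, a 10.6-fold difference. Neutrophil markers summed to 899 to 1398 CPM and 2 of 7 were called higher. Of 6 fibroblast markers 3 were called lower, and their sum was 6689 and 7283 CPM in WT and 4762 and 3947 CPM in CD4/ALK4-KO. Of 7 epithelial markers 5 were called lower and 2 higher, from 886 and 882 to 576 and 429 CPM. Of 4 platelet markers tested 2 were called lower, and of 5 mast cell and basophil markers 1. Of 5 endothelial markers 1 was called higher (*Pecam1*, 1.72, which leukocytes also express) and 1 lower (list median -0.67). Neither of 2 erythroid markers tested was called. The 4 erythroid markers summed to 2058 and 4607 CPM in WT and to 3001 and 1201 CPM in CD4/ALK4-KO. Most of this sum was *Alas2*, named after its values were seen, at 1963, 4469, 2913 and 1175 CPM. No marker was at 0 in all libraries.

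**Figure D5:**
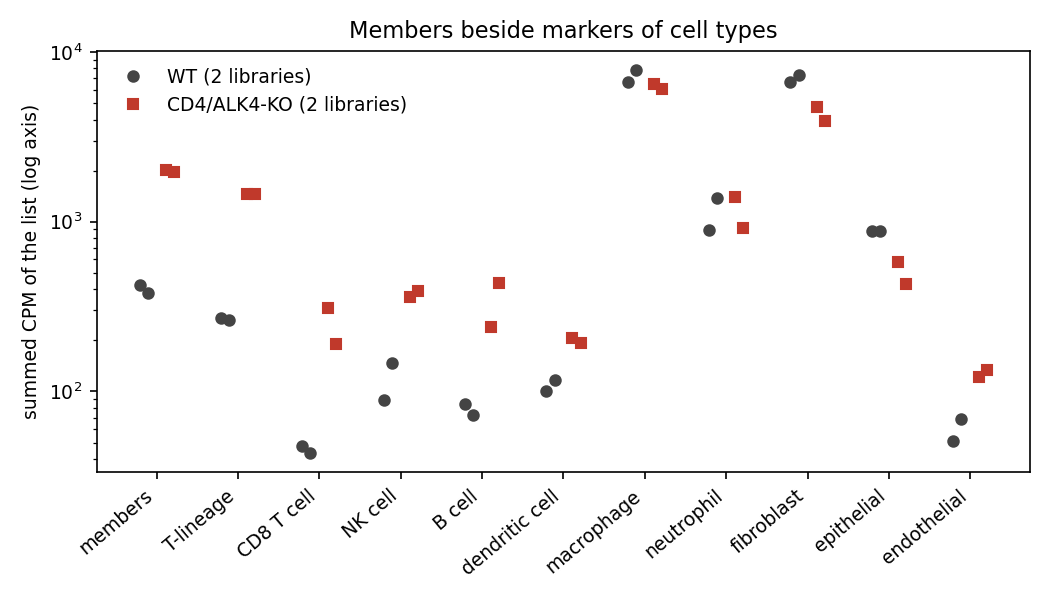
Summed CPM of the 9 members, of 10 other T-lineage genes and of cell type marker lists on a log axis, with 1 point per library (circles, WT; squares, CD4/ALK4-KO). The sums of the members, T-lineage, CD8 T, NK, B and dendritic lists are higher in both CD4/ALK4-KO libraries, and so is that of the endothelial list, through *Pecam1* alone. The macrophage sums, between 6090 and 7842 CPM, are the highest drawn in every library but WT replicate 1, where fibroblast markers reach 6689.

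The genes whose pattern over the 4 libraries was most like the mean of the members were found by the root mean square difference of centered log2 CPM, over 10451 genes. They were *Ccr8* (0.0219), a chemokine receptor of regulatory and other activated T cells, *Tbc1d10c* (0.0295), *Ptprcap* (0.0596), which encodes a protein associated with CD45, *AI504432* (0.0687) and *Tcf7* (0.0714), which encodes the T cell transcription factor TCF-1. Their log2 fold changes ran from 2.30 to 2.47. By the same measure *Cd247* (0.0648) and *Lat* (0.0894) were the members closest to the mean of the 9, and *Lcp2* (0.320) and *Cd3e* (0.301) the furthest from it. With 4 libraries in 2 groups, the likeness mostly describes a difference of the same size between the groups, and 57 genes lay within 0.2.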

How the data were processed

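According to the methods and labels, single-end reads of 75 bp were aligned to mm10 with HISAT2 and counted with htseq-count in its mode for intersections that are not empty. The authors deposited the counts of each gene symbol as counted, with no scaling. The versions, annotation and strand setting are not given in the sources used here. No row lacked a gene name.

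The 9 genes and all gene lists were chosen with earlier results of these data known. Genes named from the pathway lists were the 3 with the highest mean CPM and those with the largest and smallest log2 fold change, and from marker lists the first 2 as written. The values of some genes are not reported here. From the counts, edgeR 4.0.16 (R 4.3.3) was used with filterByExpr (13919 genes), TMM, a robust quasi-likelihood fit on genotype and Benjamini-Hochberg adjustment at 0.05. The T-lineage scale replaced TMM by the geometric mean of 10 genes. A standard error is the size of the log2 fold change over the root of its F statistic. Alternatives were other scalings and filters, a replicate block, the Wald test of DESeq2 1.42.0, and each library left out. Each group has 2 libraries. The p-values rest on the spread between replicates, which the fit estimates with information shared over all genes tested. No batch is labelled. Exon lengths and locations come from GENCODE M21, which matched 24321 symbols, and promoters from RefSeq (GRCm38.p6). The authors' flow cytometry and other assays were not analysed here.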

Additional observations from a re-analysis of the deposited data

How the results depend on the processing

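All 9 members stayed called higher under each alternative that keeps the bulk of genes as the reference, namely DESeq2's size factors, upper quartile scaling, a minimum of 10 counts in each library, no filter at all, the replicate block, the crossed replicate block, DESeq2's Wald test and each library left out. Over these the median was 2.24 to 2.48, and the largest adjusted p of a member was 0.00022 (*Lcp2*). Scaling to T-lineage genes is a different question, and there the median turned to -0.14, no member was called higher and 2 were called lower, with *Cd3d* at -0.53, *Cd3g* at -0.33, *Cd247* at -0.14, *Zap70* at -0.49, *Lat* at -0.06, *Lcp2* at -0.73 and *Acvr1b* at -2.33. On that scale 21 genes were called higher and 13147 lower. Called higher and lower there were 2 and 11 proximal partners, 1 and 11 negative regulators, 0 and 1 accessory receptors, 0 and 14 counterparts, and 0 and 8 TCR-induced genes.

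Leaving out one library gave 1103 to 2923 genes called higher and 754 to 2618 lower, against 2422 and 2140 with all. The lowest counts were those without WT replicate 1, and 1344 and 1047 were called without WT replicate 2. Here the library left alone in its group is assumed to vary like the other group. Counterparts called higher were 7 without WT replicate 1, negative regulators called lower were then 0, and 1 proximal partner, 1 counterpart and 1 TCR-induced gene were called lower without CD4/ALK4-KO replicate 2. Among members relative to T-lineage genes, 0 to 3 were called lower as each library was left out, *Cd3d* ran from -0.59 to -0.46, *Lcp2* from -0.86 to -0.62, *Cd3g* from -0.59 to -0.11 and *Zap70* from -0.68 to -0.26. *Lat* ran from -0.21 without WT replicate 2 to 0.11 without WT replicate 1. The cause of these changes was not tested.

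The labels do not say whether libraries with the same replicate number belong together. With 2 libraries per group the values below cannot decide this. The deviations of the libraries numbered 1 from their group means had a correlation of -0.214 over 13919 genes. With the replicate block 1768 genes were called higher and 1444 lower, and with the crossed pairing, added after seeing the data, 3118 and 3037. On the T-lineage scale with the replicate block 1 member was called lower, and *Cd3d* was at -0.52. Levels per length changed with the exon lengths used, also an alternative chosen after seeing the data. In bulk RNA, a shift of a member within T cells and a change in the mix of T cells cannot be told apart. The part of other cells that express a member, such as *Lcp2*, or a gene of the lists, in the T-lineage values and ratios was not tested.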
